A study of Mus musculus with 1115 samples.

Results

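Immediate early genes are transcribed within minutes of a stimulus without new protein synthesis, and 8 of them were followed here by name in single cells of the embryonic mouse cortex: Fos, Jun, Junb, Jund, Egr1, Ier2, Klf6 and Atf3, out of 16839 genes in the deposited table. The cells came from the cerebral cortex of C57BL/6 embryos at embryonic day 13.5, given as genotype CAG-mRFP;Hes5p-GFP and as wild type. All cells, in both groups, carried a plasmid delivered by in utero electroporation in which the CAG promoter drives mRFP and the Hes5 promoter drives GFP. Sorting collected 1115 cells, of which 65.6% had both colours, the Hes5_GFP group, and 34.4% had mRFP alone, the CAG_mRFP group. Libraries of single cells followed a modified Smart-seq2 protocol, which covers whole transcripts and has no molecular identifiers. The groups were therefore defined by whether a plasmid promoter was active in an electroporated cell. Every cell had been sorted, and levels present in the tissue cannot be told apart from levels that arose during handling.

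The proteins of most of these genes are transcription factors. Fos, Jun, Junb, Jund and Atf3 are basic leucine zipper proteins that pair with one another, in AP-1 and related dimers, and bind short DNA elements, whereas Egr1 and Klf6 are zinc finger proteins and Ier2 is a small nuclear protein. MAP kinases acting through serum response factor and ternary complex factors, and kinases acting through CREB and ATF proteins, switch these genes on. In the developing cortex, radial glial cells (RGCs) divide at the ventricle and give rise to intermediate progenitor cells (IPCs), which in turn give rise to excitatory neurons (ENs).

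The authors' cell table assigned 57.04% of cells to RGCs, 17.1% to IPCs and 25.8% to ENs, and also gave a cluster number, a cell cycle phase and a sort day for each cell. All 8 RGC markers, 6 of 6 IPC markers and 6 of 6 EN markers examined had their highest level in the class of that name. Total counts per cell ran from 814 to 1982807, with a median of 256329 in RGCs, 334718 in IPCs and 240326 in ENs, and the 80 cells of 1 CAG_mRFP plate, L1A, were the shallowest with a median of 30740. No animal is named, so the sort day was the replicate: days 1 to 4 held 4.48%, 6.996%, 43.8% and 44.5% of the cells, and 3 cells of a remaining day entered pooled values only. A level is given in CPM, the usual depth-scaled count, from the counts summed over the cells of a group, and intervals cover counting error only.

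Jun was the most abundant member and the one that differed most clearly between cell classes. It was high in RGCs, lower in IPCs and lowest in ENs, whereas Ier2 was at similar levels in all 3 classes. Klf6 had the same order as Jun at a lower level when all phases were pooled. Among G1 cells, however, Klf6 was higher in ENs than in IPCs, at 22.9 against 11.5 CPM. Fos, Egr1, Atf3 and Jund were found in few cells or at low counts, and Junb had no count in any cell. Only Jun in ENs against RGCs passed the main edgeR test across all genes, beside 3.78% of all genes tested there. Further calls by DESeq2, by limma and by edgeR with a day left out are given with each comparison.

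Over all 1115 cells, Jun had 84029 counts in 53.3% of cells and stood at 221.02 CPM. Ier2 had 18337 counts in 38.03% of cells, or 48.2 CPM, and Klf6 had 25764 counts in 24.9% of cells, or 67.8 CPM. Per kilobase of annotated exon, the order of these levels was Jun at 69.3, Ier2 at 31.7 and Klf6 at 15.4 CPM per kb. The other members that were detected lay between 0.954 CPM per kb for Atf3 and 2.502 for Fos, with Jund at 1.19 and Egr1 at 1.56. Reads of the rarer members were concentrated in few cells: 5 cells held 50.3% of all Fos counts, 42.8% of the Egr1 counts and 76.2% of the Atf3 counts, against 7.62% of the Jun counts. Of the 37 cells with Fos, 31 had at least 10 counts, so a positive cell was usually well above a single read. Jund differed in this respect, with a single count in 37.3% of its cells.

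Jun (chr4:95049034-95052222, minus strand, GRCm38) is a gene of 1 exon that encodes the main DNA-binding partner of Fos in AP-1. Klf6 (chr13:5861482-5870394, plus strand) encodes a zinc finger factor that binds GC-rich promoters. Fos (chr12:85473890-85477273, plus strand) encodes the unstable AP-1 subunit, and Atf3 (chr1:191170296-191218039, minus strand) a stress-induced bZIP factor. RefSeq promoter entries of build GRCm38.p6 matched 6 of the 8 members, and the 250 bases before the start of the 4 genes are shown so that Jun and Klf6, the members with most counts, can be read beside Fos and Atf3, which were read in few cells. The stretches are chr4:95052223-95052472 for Jun and chr13:5861239-5861488 for Klf6, and chr12:85473640-85473889 for Fos and chr1:191183334-191183583 for Atf3. Each is written 5′ to 3′ on the strand of its gene, and capitals mark matches on either strand to elements of the ATF and AP-1 type (TGACATCA, TGACGTCA, TTACGTCA, the shorter TGACGT and the AP-1 element TGACTCA) or to the CArG box of serum response factor.
Jun: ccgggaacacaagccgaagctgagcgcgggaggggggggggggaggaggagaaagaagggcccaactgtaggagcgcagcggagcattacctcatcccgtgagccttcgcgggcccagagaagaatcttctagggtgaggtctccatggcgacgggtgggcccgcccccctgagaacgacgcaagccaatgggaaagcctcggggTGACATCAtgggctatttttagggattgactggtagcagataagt
Klf6: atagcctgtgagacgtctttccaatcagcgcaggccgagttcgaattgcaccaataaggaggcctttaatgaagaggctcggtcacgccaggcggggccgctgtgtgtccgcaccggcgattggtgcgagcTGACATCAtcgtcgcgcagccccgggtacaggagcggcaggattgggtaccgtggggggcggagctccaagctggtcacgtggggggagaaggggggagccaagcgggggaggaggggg
Fos: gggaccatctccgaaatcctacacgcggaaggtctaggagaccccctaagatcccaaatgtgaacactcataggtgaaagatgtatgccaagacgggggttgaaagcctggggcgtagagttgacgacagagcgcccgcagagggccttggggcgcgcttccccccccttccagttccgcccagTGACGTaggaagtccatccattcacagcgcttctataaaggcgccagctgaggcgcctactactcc
Atf3: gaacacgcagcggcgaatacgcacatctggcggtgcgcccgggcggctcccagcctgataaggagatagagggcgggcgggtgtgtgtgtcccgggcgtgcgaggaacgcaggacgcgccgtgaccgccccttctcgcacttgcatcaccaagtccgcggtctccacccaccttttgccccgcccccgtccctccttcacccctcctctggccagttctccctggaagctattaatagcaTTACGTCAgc
Jun and Klf6 both held TGACATCA, Jun at 45 to 38 bases before the start and Klf6 farther upstream, and 2.93% of all 32851 promoter entries held that motif in the same window. Fos held TGACGT at 66 to 61 bases before the start, a motif found in 6.47% of entries. Atf3 held TTACGTCA at 10 to 3 bases before the start, found in 0.447% of entries, and this match contains TGACGT on the other strand. The last 7 bases of the Klf6 and Atf3 stretches lie in exons of other annotated transcripts of those genes. The marked TTACGTCA of Atf3 runs into these bases. All 250 bases of the Atf3 stretch lie within the annotated span of Atf3, so the start used there is not the start of that span. No stretch held TGACGTCA (1.55% of entries), TGACTCA (4.46%) or the CArG box (1.47%), which says only that these letters are not in these 250 bases. The entries of Junb and Jund, not shown, held none of the elements marked by capitals or searched for here. The Jund entry lay upstream of the annotated span of Jund.

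Jun separated the RGCs from the other classes on every sort day. In RGCs, Jun stood at 415.6, 504.5, 392.8 and 274.1 CPM on days 1 to 4. In IPCs it stood at 9.69, 83.5, 126.4 and 57.9 CPM on the same days, and in ENs at 49.7, 64.4 and 25.9 CPM on days 2, 3 and 4, the days with at least 10 ENs. The RGC values did not overlap those of either other class, whereas the IPC and EN values overlapped each other. The day means were 396.8 ± 94.9 CPM in RGCs (SD, n = 4), 69.4 ± 48.8 in IPCs (SD, n = 4) and 46.7 ± 19.4 in ENs (SD, n = 3).

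**Figure D1:**
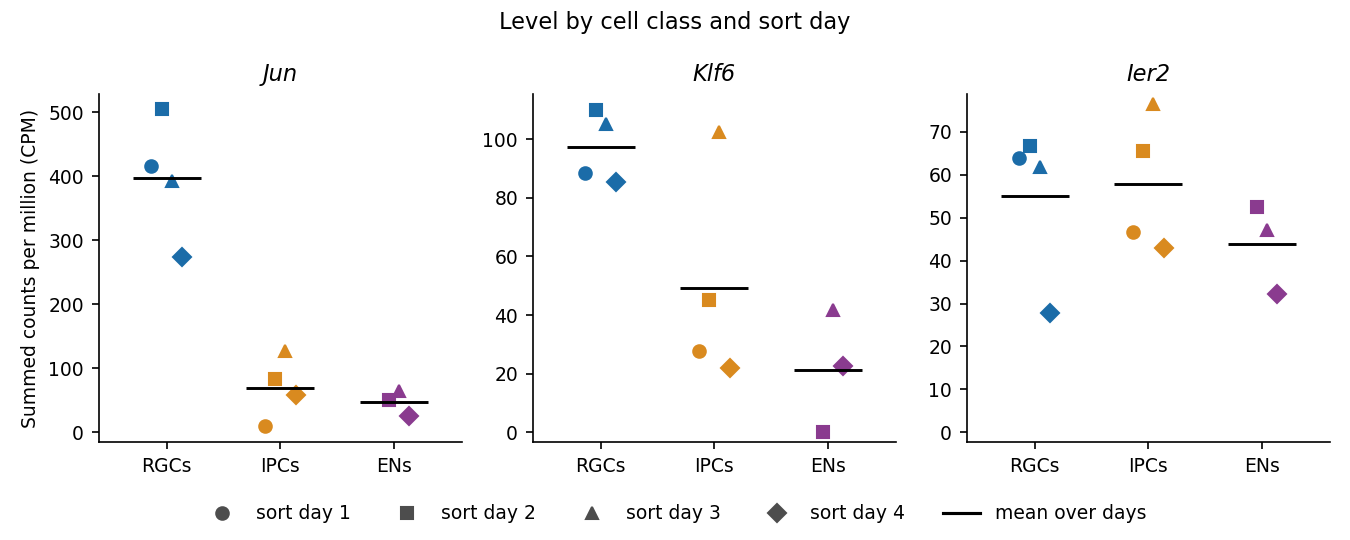
Summed CPM of Jun, Klf6 and Ier2 (vertical axes) in RGCs, IPCs and ENs on each sort day with at least 10 cells of the class. Each symbol is a day and the black line is the mean over days. Jun lies between 274.1 and 504.5 CPM in RGCs and at or below 126.4 CPM in the other classes.

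In ENs against RGCs, Jun fell by 3.12 on the log2 scale (SE 0.27, adjusted p = 0.0184, edgeR quasi-likelihood test blocked by sort day), and it was lower in ENs on 3 of 3 days. It was the only one of the 5 members tested that was called, beside 3.78% of all 10633 genes tested in that comparison (1.99% lower in ENs). Classes were assigned to these same cells by the authors, in a way that the sources used here do not give, so the p-value does not cover the choice of class. If expression was used to assign them, the p-value is not independent of that choice. Among G1 cells alone, which left only days 3 and 4, Jun fell by 2.77 (SE 0.38, edgeR adjusted p = 0.0028), with 13% of genes called. Over the same 2 days the call was lost in Hes5_GFP cells alone, where the ratio was -3.57 (edgeR adjusted p = 0.0577). Over those days it was lost in CAG_mRFP cells alone too, at -1.31 (edgeR adjusted p = 0.48). It was also lost without day 3 (-3.37, edgeR adjusted p = 0.085) or without day 4 (-2.98, edgeR adjusted p = 0.125), which leave 2 days each. With TMM scaling the median log2 ratio of all genes in this comparison moved from -0.21 to -0.10, and Jun gave -3.02.

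In IPCs against RGCs, the log2 ratio of Jun was -2.86 (SE 0.65) with an adjusted p of 0.16 by edgeR, lower in IPCs on 4 of 4 days. None of the 5 members tested was called, against 0.768% of 10418 genes. DESeq2 called it (adjusted p = 9.4e-06) among 12.2% of genes, and limma on the mean CPM of single cells called it (adjusted p = 0.0295) among 3.12%. These were the only 2 of 14 alternatives that called Jun here. Over all 14 the log2 ratio stayed negative and ran from -3.33 to -0.755. Among genes tested, 11.4% had day values that did not overlap between IPCs and RGCs, and of the 5 members only Jun did. In ENs against IPCs, Jun gave -0.96 (SE 0.35, edgeR adjusted p = 0.335), and none of 4 members was called, against 0.731% of 10257 genes.

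Klf6 was at 88.6, 110.1, 105.1 and 85.3 CPM in RGCs on days 1 to 4. IPCs had 27.7, 45.2, 102.4 and 22.1 CPM, and ENs had 0, 41.7 and 22.5 CPM on days 2 to 4. ENs therefore lay below RGCs on every day, while IPCs came up to the RGC range on day 3. The 18 ENs of day 2 had no Klf6 count, which allows up to 0.172 CPM. The log2 ratio of ENs to RGCs was -3.18 (SE 2.17, edgeR adjusted p = 0.449), and without day 2 it was -1.63 (SE 0.35, edgeR adjusted p = 0.0179), beside 22% of genes called without that day. In G1 cells alone, over days 3 and 4, it was -0.69 (SE 0.54, edgeR adjusted p = 0.463). Of the 5 members, Jun and Klf6 had day values that did not overlap between ENs and RGCs, beside 37.4% of all genes tested. IPCs against RGCs gave -1.25 (SE 0.43, edgeR adjusted p = 0.329). In CAG_mRFP cells alone, over days 3 and 4, both ratios turned, to 0.42 for ENs and 1.18 for IPCs against RGCs.

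Ier2 (chr8:84661331-84662852, minus strand) showed no such order. RGCs had 63.9, 66.6, 61.8 and 27.7 CPM, IPCs had 46.6, 65.6, 76.5 and 43.01 CPM, and ENs had 52.6, 47.1 and 32.3 CPM on days 2 to 4. The 3 ranges overlapped, and day 4 was the lowest day in each class. Log2 ratios were 0.12 (SE 0.39) for IPCs to RGCs, -0.17 (SE 0.44) for ENs to RGCs and -0.48 (SE 0.41) for ENs to IPCs, with edgeR adjusted p of 0.927, 0.841 and 0.661. On simulated counts the test recovered 2.99% of 2-fold and 28.79% of 8-fold changes in IPCs against RGCs. Differences well above these standard errors could therefore go uncalled.

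The share of cells with a read gave the same picture after each cell had been thinned to 20000 counts, which left out 47 shallower cells. Jun was found in 72.1% of RGCs, 32.1% of IPCs and 13.8% of ENs, with exact 95% binomial intervals of 68.4 to 75.7%, 25.5 to 39.3% and 9.97 to 18.5%. These intervals are over cells and do not cover the spread between sort days. Between days the share with Jun ran from 67.9 to 93.02% in RGCs, 8.33 to 44.6% in IPCs and 9.52 to 19.8% in ENs. Klf6 was found in 28.1%, 18.7% and 11.3%, and Ier2 in 32.3%, 35.3% and 24.7%. Without thinning, Jun was found in 74.5%, 37.2% and 17.01% of cells. Among the cells with a read, the median level of Jun over all classes was 296.9 CPM and that of Klf6 was 210.9 CPM.

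**Figure D2:**
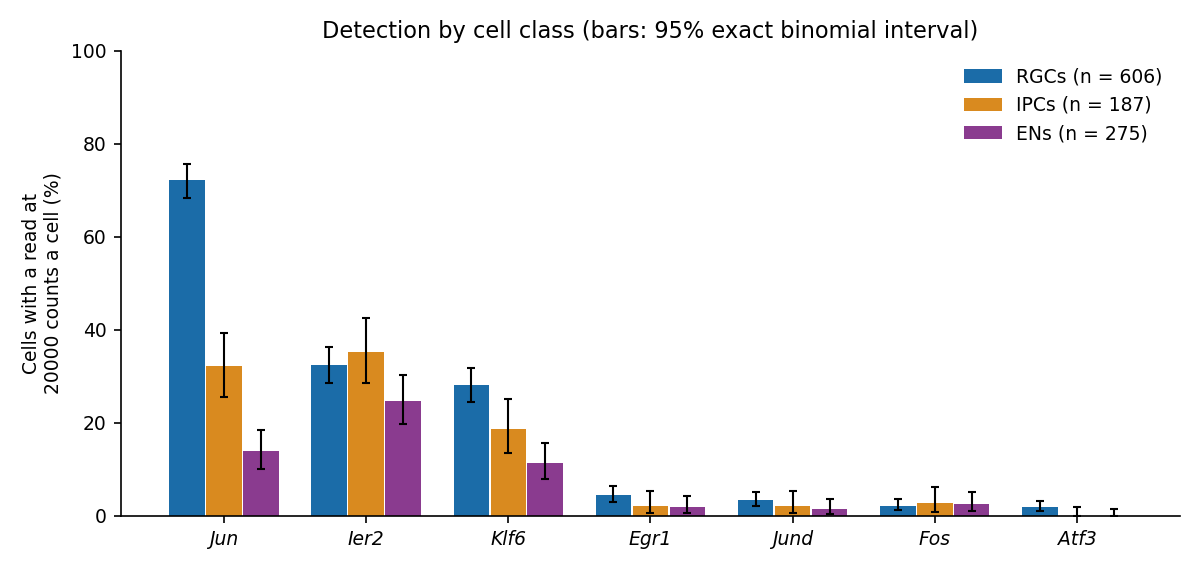
Percentage of cells with at least 1 read of each member after thinning to 20000 counts (vertical axis), in RGCs, IPCs and ENs. Error bars are exact 95% binomial intervals over cells and do not cover the spread between sort days. Jun runs from 72.1% in RGCs to 13.8% in ENs while Fos stays below 3% in each class.

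Fos was rare in every class. It was read in 20 RGCs, 7 IPCs and 10 ENs, or 3.14%, 3.66% and 3.47% of cells, at 5.62, 7.31 and 5.22 CPM. Day values in RGCs were 0, 4.38, 12.8 and 1.38 CPM, and in IPCs 0.0914, 4.92, 20.1 and 2.96 CPM. Day 3 was the highest day in both of these classes, whereas in ENs day 2 was, with 16.5 CPM from 2 cells. The summed level of 6 endothelial markers in RGCs was also highest on day 3, at 43.8 CPM against at most 0.382 CPM on the other days, and its part in the Fos level was not tested. The log2 ratio of ENs to RGCs was 0.29 (SE 1.43), so no difference was detectable with so few positive cells.

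Egr1 (chr18:34859823-34864984, plus strand), a target of ternary complex factors, was read in 50 cells, 37 of them RGCs. RGCs had 33.7, 33.8, 7.21 and 1.14 CPM on days 1 to 4, while IPCs had 4.57, 7.10, 1.87 and 0.0631 CPM. Within each day IPCs were below RGCs, but the fall over days was larger than the gap, and the ranges overlapped. The log2 ratio was -2.75 (SE 1.02, edgeR adjusted p = 0.372), and DESeq2 called it (adjusted p = 0.0189). Pooled over all Hes5_GFP cells, Egr1 was at 10.2 CPM in RGCs and 2.36 CPM in IPCs. In CAG_mRFP cells the pooled levels were 16.4 and 3.31 CPM. On days 3 and 4, however, RGCs were the lower class in CAG_mRFP cells, with a mean of 0.0999 against 3.26 CPM. The RGC values of these days were 0 and 0.2 CPM, so this direction rests on values at or near 0. The part of each reporter group in the gap was not tested.

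Atf3 was read in 14 cells, 13 RGCs and 1 IPC, and all 14 were in the Hes5_GFP group. The ENs had no count, which allows a share of up to 1.04% of cells, and the CAG_mRFP cells had none, which allows up to 0.781%. Hes5_GFP cells had 9.18, 1.59, 5.01 and 0.411 CPM on days 1 to 4, and the day 1 value came from a single cell. Atf3 passed the filter on low counts only in the comparison of phases, so it was not tested between classes or reporter groups.

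Jund, the AP-1 subunit usually expressed without a stimulus, was at 1.98 CPM and was read in 9.91% of RGCs, 13.1% of IPCs and 10.4% of ENs. After thinning it was found in 3.30%, 2.14% and 1.45% of cells, so most of its detection needed deeper cells. Its annotated span (chr8:70698949-70700616) overlaps the antisense gene Gm11175 over 919 bases. Whether counting used strand is not given in the sources used here, and without strand the reads of the 2 genes cannot be told apart. Jun overlaps the antisense gene Junos and Junos was read in 22 cells at 0.563 CPM.

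Junb (chr8:84974484-84978718) had no count in any of the 1115 cells, which allows up to 0.00789 CPM. In the authors' normalized table, however, Junb was above 0 in 25.4% of cells, or 36.8% of ENs, 25.7% of IPCs and 20.1% of RGCs. Back-calculated to counts, the highest of these entries was 1.32e-36. The gene overlaps Prdx2, a peroxiredoxin gene on the other strand, and Prdx2 was at 1257 CPM and was read in all of those cells and in 1100 cells in all. Junb shared this behaviour with other genes: 0.796% of the genes in the table had 0 counts in every cell, and 97.01% of these had an entry above 0 in the normalized table. The zero for Junb is therefore a value of this table, and how reads of overlapping genes were assigned was not tested.

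The reporter groups were compared to ask how the members differ between cells with and without Hes5 promoter activity, a readout of Notch signalling. Jun was higher in Hes5_GFP on 4 of 4 days. It stood at 305.6, 313.2, 340.9 and 226.4 CPM in Hes5_GFP and at 248.8, 84.3, 102.96 and 31.7 CPM in CAG_mRFP, and the ranges overlapped through day 1. Klf6 stood at 91.98, 81.1, 107.2 and 66.8 CPM in Hes5_GFP and at 30.9, 14.8, 45.2 and 31.9 CPM in CAG_mRFP, with no overlap. Of the 5 members tested, only Klf6 did not overlap, beside 9.63% of genes. The log2 ratios were 1.70 (SE 0.42, edgeR adjusted p = 0.17) for Jun and 1.58 (SE 0.37, edgeR adjusted p = 0.156) for Klf6. None of the 5 was called, against 0.399% of 10517 genes; DESeq2 called both Jun (adjusted p = 0.00131) and Klf6 (adjusted p = 0.00607), among 11.1% of genes, and without day 1 edgeR called Jun (2.15, adjusted p = 0.0359) among 2.43%.

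**Figure D3:**
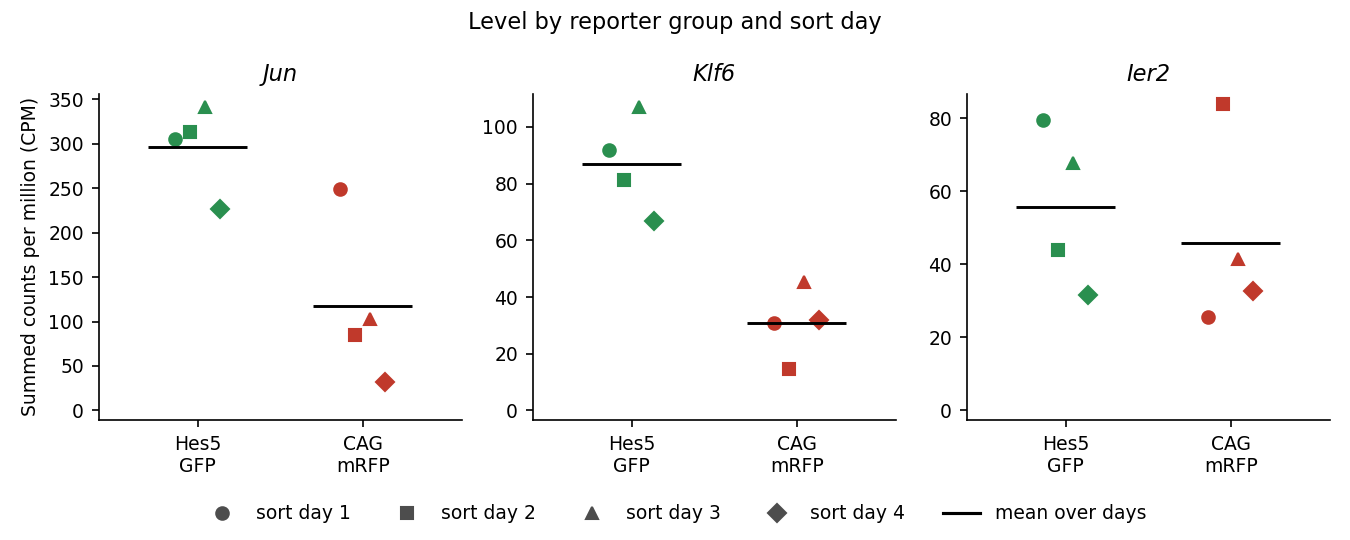
Summed CPM of Jun, Klf6 and Ier2 (vertical axes) in all cells of the Hes5_GFP and CAG_mRFP groups on each sort day. Symbols are days and black lines are means over days; Klf6 lies at or above 66.8 CPM in Hes5_GFP and at or below 45.2 CPM in CAG_mRFP.

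The groups differed in makeup, with 77.2% RGCs in Hes5_GFP and 18.8% RGCs and 63.3% ENs in CAG_mRFP. Among RGCs alone, over days 1, 3 and 4, Jun stood at 387.1, 408.1 and 287.6 CPM in Hes5_GFP and at 475.5, 173.2 and 69.2 CPM in CAG_mRFP. It was thus higher in Hes5_GFP on 2 of the 3 days. Klf6 stood at 110.02, 111.03 and 88.7 CPM against 43.6, 20.4 and 33.01 CPM, higher in Hes5_GFP on all 3. Of the 5 members tested, only Klf6 did not overlap, beside 12.8% of genes. Day 2 was left out because it had 2 CAG_mRFP RGCs, and these ran the other way, with 307.3 CPM of Klf6 against 96.6 CPM in Hes5_GFP RGCs. The log2 ratios were 1.01 (SE 0.49) for Jun and 1.73 (SE 0.61) for Klf6, both with an edgeR adjusted p of 0.999. No gene of 10405 was called in this comparison (percent called 0) by edgeR, while 2.04% had an unadjusted p under 0.05 and DESeq2 called 1.21%. The CAG_mRFP RGCs also differed in phase and depth, with 68.1% in G1 against 32.3% in Hes5_GFP RGCs, a median of 200024 against 260411 counts and 2510 against 3586 detected genes. The part of these differences in the levels was not tested.

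Ier2 had no common direction between reporter groups over all cells, at 79.4, 44.03, 67.7 and 31.6 CPM in Hes5_GFP and 25.7, 83.9, 41.5 and 32.7 CPM in CAG_mRFP. It was higher in Hes5_GFP on 2 of 4 days, and the log2 ratio was 0.34 (SE 0.51, edgeR adjusted p = 0.812). Among RGCs alone it was higher in Hes5_GFP on 3 of 3 days, at 84.2, 64.03 and 27.7 CPM against 21.2, 29.6 and 27.3 CPM on days 1, 3 and 4. The ranges overlapped, and the log2 ratio was 1.04 (SE 0.84, edgeR adjusted p = 0.999).

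The authors' 8 clusters divided the RGC class further, and are described without a test because they were made from the same cells. Jun was at 409.5 CPM in cluster 0 (80.5% G2M), 351.3 CPM in cluster 1 (79.9% G1) and 350.8 CPM in cluster 3 (all G2M). Another cluster of RGCs, cluster 7, had 109.05 CPM, with a read in 11 of 72 cells, and its median depth was 97172 counts. IPC clusters 4 and 6 had 71.1 and 66.4 CPM, and EN clusters 2 and 5 had 31.6 and 47.9 CPM. Klf6 was highest in cluster 3 at 148.03 CPM, with a read in 58.4% of its cells, and of the IPC clusters it was higher in cluster 4 (69.8 CPM, 88.98% G2M) than in cluster 6 (10.2 CPM, 75.3% G1). Ier2 ran from 37.1 CPM in cluster 3 to 70.6 CPM in cluster 7. The share of cells with a read had the other order, at 47.2% in cluster 3 and 13.9% in cluster 7, where 10 of 72 cells held Ier2.

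**Figure D4:**
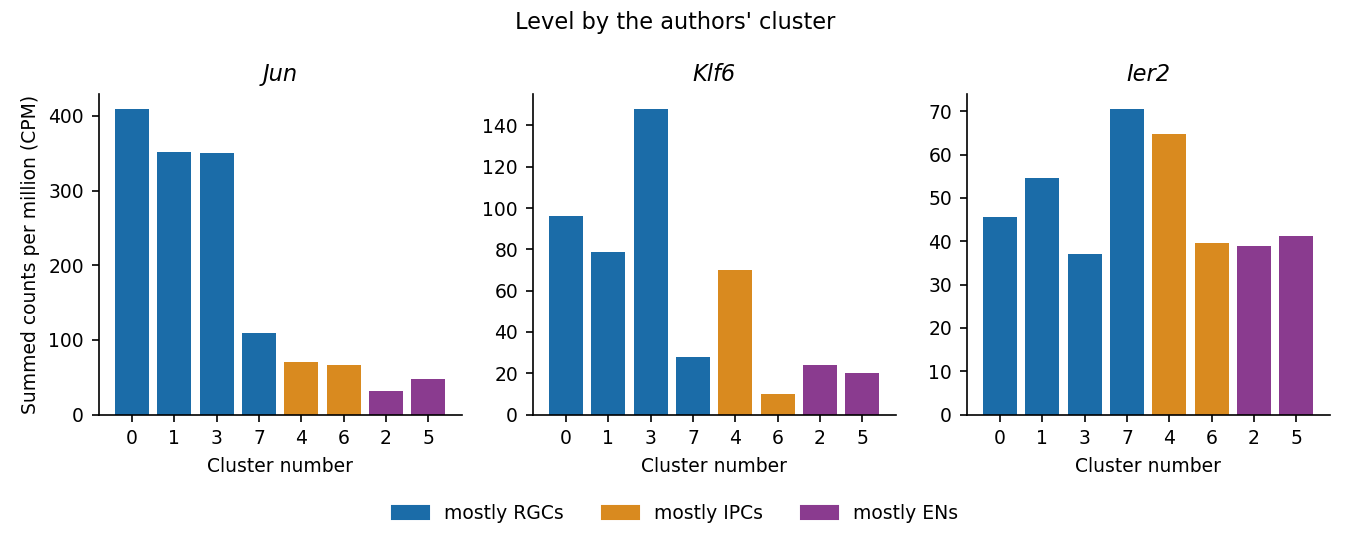
Summed CPM of Jun, Klf6 and Ier2 (vertical axes) in each of the 8 deposited clusters, coloured by the class that most of their cells belong to. Jun is at or above 350.8 CPM in RGC clusters 0, 1 and 3, and Klf6 peaks at 148.03 CPM in cluster 3.

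By phase, the level of Klf6 over all cells was 30.3 CPM in G1, 77.2 in S and 103.1 in G2M. Within Hes5_GFP RGCs, Klf6 was at 9.23, 70.3 and 45.3 CPM in G1 and at 114.2, 136.6 and 112.8 CPM in G2M on days 2, 3 and 4, with no overlap. The G1 value of day 2 came from 7 cells. Day 1 was left out because it had 3 G2M cells, which had no Klf6 count, against 55.3 CPM in G1. The log2 ratio of G2M to G1 was 1.91 (SE 0.79, edgeR adjusted p = 0.937). No gene of 10346 was called in this comparison by edgeR (percent called 0), members included, although it sets mitotic against G1 cells; 2.92% of genes had an unadjusted p under 0.05, and DESeq2 called 1.39%. Of the 6 members tested only Klf6 did not overlap, beside 13.4% of genes. Jun was at 393.3, 326.6 and 287.3 CPM in G1 and 498.03, 472.4 and 295.1 CPM in G2M, a log2 ratio of 0.30 (SE 0.25, edgeR adjusted p = 0.937). Within IPCs, Klf6 was read in 30.1% of G2M cells and 7.84% of G1 cells, and Jun in 38.9% and 31.4%. ENs were almost all in G1, so the class differences could be read within that phase: Jun was at 296.6 CPM in G1 RGCs, 86.2 in G1 IPCs and 39.4 in G1 ENs, while Klf6 was at 45.5, 11.5 and 22.9 CPM.

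**Figure D5:**
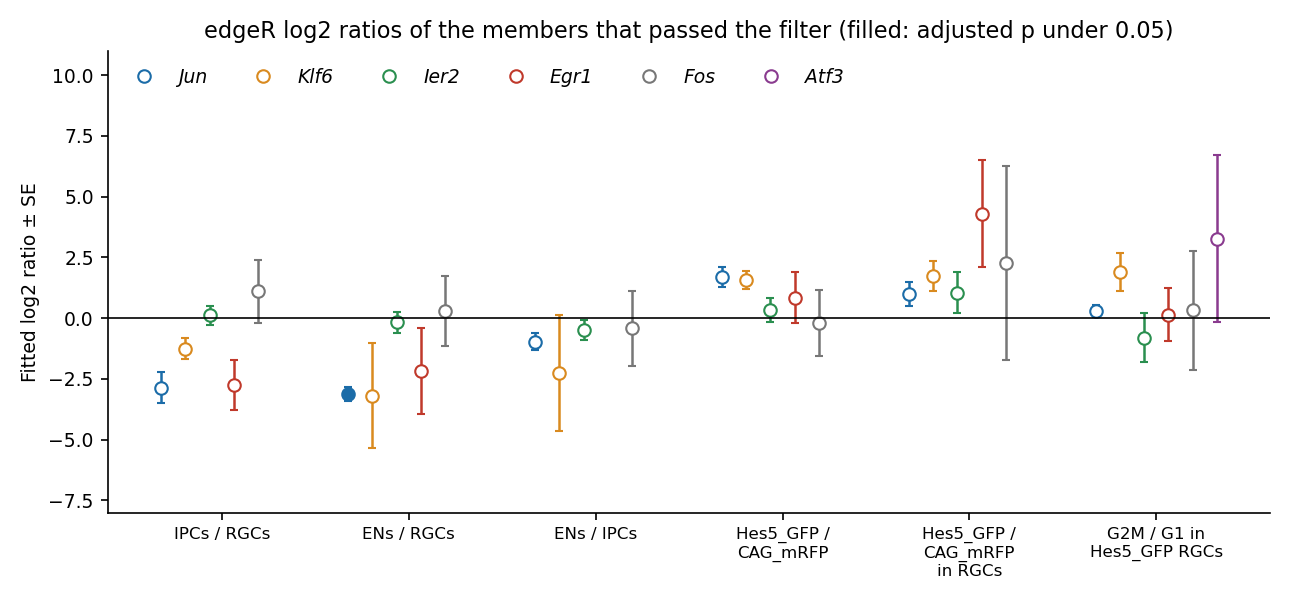
Fitted log2 ratios with standard errors (vertical axis) of the members that passed the filter in each of the 6 comparisons. Only Jun in ENs against RGCs, at -3.12, has an adjusted p under 0.05.

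Members met in the same cell to differing degrees. At 20000 counts, 17.7% of RGCs, 35.8% of IPCs and 57.5% of ENs had none of the members, and 12.7% of RGCs had 3 or more. Among RGCs, 23.8% had both Jun and Klf6, where the product of the separate shares gives 20.2%. Klf6 was read in 32.95% of RGCs with Jun and in 15.4% of those without. Jun and Ier2 were found together in 25.6% against a product of 23.3%, and Ier2 and Klf6 in 11.2% against 9.07%. These RGCs include those of cluster 7, which had a median of 1168 detected genes. At this depth 11.7% of the cells of cluster 7 had Jun, 3.33% had Klf6 and 11.7% had Ier2. The part of such cells in the shares was not tested. All 11 RGCs with Atf3 at this depth had Jun, and 6 of the 11 had Klf6. Of the 13 RGCs with Fos, 12 had Jun, 8 had Klf6, 7 had Ier2, 3 had Egr1 and 3 had Atf3, against 71.7%, 27.3%, 31.9%, 4.05% and 1.35% of the RGCs without Fos. At full depth the RGCs with Fos were not the deeper cells, with a median of 156830 counts against 258351 in those without. RGCs with Egr1 were deeper, at 390080 against 246416 counts.

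Correlations of log2(CPM + 1) were taken within strata of 1 plate batch and 1 reporter group with at least 20 RGCs, 5 strata with 90.7% of all RGCs, and are descriptions. The mean r was 0.225 for Jun and Klf6 (0.117 to 0.316 over strata), 0.202 for Jun and Ier2 (0.072 to 0.47) and 0.131 for Ier2 and Klf6 (-0.279 to 0.615). Jun and Klf6, and Jun and Ier2, were above 0 in all 5 strata, Ier2 and Klf6 in 3. The genes most like Jun were Gpc4, a glypican (mean r 0.445), Map1b, a microtubule-associated protein (0.429), and Sf3b2, a splicing factor (0.408). The number of genes detected in a cell, which these values share, correlated with Jun at a mean r of 0.509, above any of the 3. For Ier2 the most alike were Psmd3 (0.318), Thap11 (0.28) and Ak3 (0.278), and for Klf6 Pcdh18 (0.391), Cenpc1 (0.38) and Heatr1 (0.342). In the smallest strata few cells held Klf6, and there r reached 1. For the rarer members r was not defined in every stratum, because each had no read in at least 1 of them, so no genes were ranked for these members.

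Other genes of the early response were taken from lists. Of 41 other early response genes, 35 were in the table and 22 were tested in IPCs against RGCs, where 1 was higher and 2 were lower, beside the 0.768% of all genes called. Btg2, an antiproliferative gene that is also among the IPC markers used here, was higher in IPCs by 2.12 (SE 0.25, edgeR adjusted p = 0.0315). Zfp36l1, which encodes an RNA-binding protein that promotes mRNA decay, was lower by -2.91 (SE 0.21, edgeR adjusted p = 0.00918). Cyr61, a secreted matricellular protein, was at 214.3 CPM in RGCs and 0.0989 CPM in IPCs (edgeR adjusted p = 0.00918). The median log2 ratio of the 22 was -0.99, beside -0.25 for all genes tested. In ENs against RGCs, only Zfp36l1 of 22 was called, beside 3.78% of all genes, at 0.399 CPM in ENs against 166.1 CPM in RGCs (edgeR adjusted p = 0.0472). The median of the 22 was -0.42, beside -0.21 for all genes.

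Of 20 upstream kinases and factors, among them Srf, Elk1, Creb1 and MAP kinases, 18 were tested and none was called in any of the 6 comparisons, with 4 at an unadjusted p under 0.05 in ENs against RGCs, where 23.5% of all genes had one. Of 14 other AP-1 and ATF partners none was called by edgeR either, with 1 of 9 tested at an unadjusted p under 0.05 in that comparison. Of 12 heat shock and stress genes, 9 were tested in ENs against RGCs and 2 were lower, Hsp90aa1 by -0.78 (SE 0.12, edgeR adjusted p = 0.0495) and Hspd1 by -1.14 (SE 0.17, edgeR adjusted p = 0.0455), both chaperones. The share of all genes lower in that comparison was 1.99%, and the median log2 ratio of the 9 was -0.15, beside -0.21 for all genes. Endothelial markers, beside the day 3 value in RGCs, were at most 1.45 CPM in IPCs and 0.286 CPM in ENs on any day. The summed level of 5 erythroid markers in RGCs was 18.1, 4.496, 1.11 and 1.37 CPM on days 1 to 4, and 12.8 CPM when pooled with the 3 cells of the remaining day. In IPCs and ENs it was at most 1.64 and 1.16 CPM on any day. Their part in the member levels was not tested.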

How the data were processed

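The members and the gene lists were chosen with earlier results of these data known. The deposited counts are whole numbers per gene and cell; per the submitters' processing notes HISAT2, Seurat 2 and mm10 were used, while for the annotation, counting tool, strand setting and calling of classes and phases the sources used here name nothing. The authors' normalized table holds natural log values, ln(1 + count share × 10000), and back-calculation showed that 2.80% of nonzero counts had been rounded (tolerance 0.01). The authors' cell table also gives a mitochondrial fraction. Spans and exon lengths come from GENCODE vM21 on GRCm38, the build mm10 names.

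No cell was removed, and no doublet caller was run because wells were sorted as single cells. Counts were summed per sort day and arm, over days with at least 10 cells of each arm (5 for phases). Genes with at least 5 CPM in either arm were tested with edgeR 4.0.16 (quasi-likelihood, total counts as library size, sort day as block), with Benjamini-Hochberg adjustment at 0.05. Arms of the same day are paired because the authors' table gives their shared sort day. Days may hold session as well as embryo differences, and p-values measure the spread between days. Alternatives were TMM, DESeq2 1.42.0, limma 3.58.1 on log2(mean CPM + 1), no filter, no block, deeper cells, 1 reporter group, and each day left out. Leaving out plate L1A and taking G1 cells alone were chosen after seeing the data. Shares were computed after thinning each cell to 20000 counts, with exact 95% binomial intervals, and a count of 0 allows 3 counts. Simulated counts for ENs against RGCs had known changes in 67, 67 and 66 of 10633 genes at 2-, 4- and 8-fold. Of these, 12.12% of 8-fold and 7.46% of 4-fold changes were recovered, and no 2-fold change, so the test missed most changes in that setting. With more changed genes the share recovered can differ, which was not tested. All 8 members are named, with the 3 genes most like Jun, Ier2 and Klf6, the members with r defined in every stratum, and the list genes past the test.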

Additional observations from a re-analysis of the deposited data

Results flagged for a closer look

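Some single days stood apart from the other days of their group. With 4 days, chance does this in about 1 group in 20 if the values follow a normal distribution. Sparse counts do not, and a group with reads on only 1 day always stands apart. Ier2 in RGCs was at 27.7 CPM on day 4, against 61.8 to 66.6 CPM on the others. Jund was at 15.3 CPM in IPCs of day 1, where the other days had at most 2.52 CPM, and at 11.1 CPM in CAG_mRFP cells of day 1. Atf3 was at 0.5676 CPM in IPCs of day 4, from 1 cell, and at 0 on the other days.

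The differences of Egr1 between RGCs and either other class, and of Ier2 between ENs and RGCs, ran in opposite directions in the 2 reporter groups on every day with enough cells, and these differences between groups were not tested. For Egr1, IPCs minus RGCs was -7.00 CPM in Hes5_GFP cells (mean over 3 days, 3.63 against 10.6 CPM) and 3.16 CPM in CAG_mRFP cells (2 days, 3.26 against 0.0999 CPM). ENs minus RGCs was -4.46 CPM for Egr1 in Hes5_GFP cells and 1.93 CPM in CAG_mRFP cells, over 2 days each. The CAG_mRFP RGC values in both Egr1 differences were 0 and 0.2 CPM, at or near 0. For Ier2, ENs minus RGCs was -2.70 CPM in Hes5_GFP cells and 9.74 CPM in CAG_mRFP cells, over 2 days each.

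The 3 cells of the sort day that entered no comparison had 155.9 CPM of Egr1, all from 1 cell with 47 counts.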

How the results depend on the processing

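Of the log2 ratios of members under the alternatives, 24 reversed, 7 passed the threshold, 4 lost it and the others kept their direction and side of it. The cause was not tested. In the reporter comparison, leaving out a day gave Fos -0.60 to 0.25 and Ier2 -0.089 to 0.76. In IPCs against RGCs, Fos gave -0.13 by limma and -9.93 in G1 cells, Ier2 -0.082 by limma and -0.056 to 0.31 with a day left out, and Klf6 1.18 in CAG_mRFP cells. In ENs against RGCs, Fos gave -0.61 to 1.28 with a day left out and -2.90 in Hes5_GFP cells, Ier2 0.41 in CAG_mRFP cells and 0.049 in G1 cells, and Klf6 0.42 in CAG_mRFP cells. In ENs against IPCs, Fos gave 0.90 by limma and -1.49 to 0.64 with a day left out, and Klf6 3.03 in G1 cells. In G2M against G1, Fos gave -0.36 by limma and -1.30 to 1.41 with a day left out, Egr1 -0.65 and -0.61 to 0.33, and Ier2 -1.41 to 0.13 with a day left out and 0.12 in cells of at least 50000 counts.

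The share of genes called in the reporter comparison was 0.399%, against 11.06% by DESeq2, 0.449% with no filter on low counts, 3.85% by limma and 0 to 2.43% with a day left out, and 0 to 1 members were called. DESeq2 called 2 members there. In RGCs alone it was 0, against 1.21% by DESeq2, 0.00613% with no filter and 0.0194% in G1 cells. In IPCs against RGCs it was 0.768%, against 12.19% by DESeq2 with 2 members, 3.12% by limma with 1 member, 0.0570 to 0.474% with a day left out, 0.359% in Hes5_GFP cells and 0 in CAG_mRFP cells or G1 cells. In ENs against RGCs it was 3.78% with 1 member, against 25.11% by DESeq2, 19.32% by limma, 12.98% in G1 cells, 0.433% in Hes5_GFP cells and 2.15% in CAG_mRFP cells, the last 2 with 0 members. Leaving out a day gave 0 to 22.05% and 0 to 2 members. In ENs against IPCs it was 0.731%, against 14.45% by DESeq2, 6.24% by limma, 0 to 6.52% with a day left out, 0.157% in Hes5_GFP cells and 0.146% in G1 cells. In G2M against G1 it was 0, against 1.39% by DESeq2, 0.0126% with no filter, 0.522% by limma, 0.460 to 1.37% with a day left out and 1.42% in cells of at least 50000 counts.

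With no replicate block, which ignores the pairing of arms by sort day, 0.171% of genes were called between reporter groups, 7.65% in ENs against RGCs, 1.84% in ENs against IPCs and 0.0580% in G2M against G1. In G2M against G1 the ratios of Fos, Egr1 and Atf3 were then -1.35, -0.82 and -0.88. The main limits are 4 sort days, of which 2 are small, members read in few cells, and counts without molecular identifiers.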
